A study of Mus musculus with 2 samples.

Results

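Cytosolic ribosomal protein genes encode the protein components of the ribosome outside mitochondria, and they were followed here in endothelial cells (ECs) sorted from implanted tumours. The genes were all those in both libraries whose symbol begins with Rpl or Rps followed by a digit or letter, apart from the kinase genes beginning with Rps6k and symbols containing -ps, which mark pseudogenes. This rule found 86 genes of the 17139 listed. By name, 46 encode proteins of the large (60S) subunit and 31 proteins of the small (40S) subunit, 8 are paralogs or retrocopies of such genes, and 1, Rps19bp1, encodes a protein that binds ribosomal protein S19 and is no part of the ribosome. Fau and Rack1 also encode ribosomal proteins, although their symbols do not meet the rule.

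The ribosome translates mRNA, and each subunit needs its proteins in nearly equal numbers, so that cells make them together. Most of their mRNAs start with a run of pyrimidines, the 5′ terminal oligopyrimidine (TOP) element, through which mTOR signalling and the protein LARP1 control their translation. Several of the proteins also act outside the ribosome, such as RPL5 and RPL11, which bind MDM2 when ribosome assembly fails, and RPL13A, which human myeloid cells release from the ribosome after interferon-γ to hold back translation of inflammatory mRNAs.

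ECs of 1 tumour that had received PBS and 1 tumour that had received cGAMP were profiled by droplet-based scRNA-seq. cGAMP is a cyclic dinucleotide that activates STING. Both tumours were Lewis lung carcinoma (LLC) in adult C57BL/6 mice, which the methods describe as males of 8 to 9 weeks when the cells were implanted under the skin. The injection held 14 µg of cGAMP in 70 µl of PBS, or PBS alone, and live CD31+ ECs were sorted 24 h later by the methods, whereas a supplementary legend gives 6 h. Each condition was 1 mouse and 1 library, so no difference has a replicate check, no test was made, and every interval is an exact 95% interval that covers counting error only.

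The PBS library held 2517 ECs with 92081146 UMIs (median 29780 per cell) and the cGAMP library 1340 ECs with 63366746 UMIs (median 41178 per cell). The 5 endothelial markers summed to 3037 CPM and 3118 CPM, where CPM (counts per 1000000) relates the UMIs of a gene to all UMIs of the library. Markers of other cells were low but moved with the condition. The 4 neutrophil markers summed to 0.652 CPM with PBS and 17.0 CPM with cGAMP, the 7 macrophage markers to 15.4 and 33.3 CPM, the 5 lymphatic markers to 18.05 and 45.0 CPM and the 5 pericyte markers to 48.9 and 59.8 CPM. The pericyte markers include Kcnj8, which was also among the 10 leading genes of a cluster of the ECs, and the part of other cells in that sum was not tested. Fibroblast markers summed to 3.84 and 2.23 CPM, epithelial markers to 2.15 and 0.395 CPM, and the 2 listed of 5 T and NK cell markers stayed at or under 0.126 CPM. Mitochondrial genes made up 4.51% of UMIs with PBS and 2.92% with cGAMP, and the part of these differences in the results was not tested.

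Start windows were searched for a pyrimidine run like that of TOP mRNAs, and those of 7 genes are shown. Each window is 30 bases from RefSeq (GRCm38.p6), from 10 bases before the annotated start, 5′ to 3′ on the gene's strand. The run (C followed by at least 5 C or T) is in capitals, and each annotated start of the 7 lies within 10 bases of a GENCODE start. A run is a match of letters only, anywhere in the window, and need not begin at the start as a TOP element does. The run of Rps27l lies wholly before the annotated start, and those of Rpl22l1, Rps2 and Rpl13a begin after it. Rps27 and its retrocopy Rps27rt are shown for their likeness, Rps27l and Rpl22l1 as paralogs and Rps2 for its level. Rpl7l1 is shown as a window without the run and Rpl13a for the longest run of the 7. Rpl36a, also at such a start, held no run and is not shown. Rpl27, Rps3, Rpsa, Rpl22 and Rpl36al, with entries 53, 29, 23, 16 and 16 bases from a GENCODE start, held none either and are not shown.
Rps27: cgctttcgCTCCTTTCCggcggtgacgacc
Rps27rt: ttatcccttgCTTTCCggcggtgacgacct
Rps27l: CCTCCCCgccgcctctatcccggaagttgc
Rpl22l1: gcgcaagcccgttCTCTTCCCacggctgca
Rps2: gtcgagatctcgcgCTTCTTggagcactat
Rpl7l1: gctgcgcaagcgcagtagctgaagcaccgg
Rpl13a: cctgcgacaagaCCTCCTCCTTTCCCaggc
The windows lie at chr3:90213629-90213658 (minus strand), chr9:114982720-114982749 (minus), chr9:66946076-66946105 (plus), chr3:28805498-28805527 (plus), chr17:24720053-24720082 (plus), chr17:46782637-46782666 (minus) and chr7:45128726-45128755 (minus). Those of Rps27 and Rps27rt share an unbroken run of 19 bases. RefSeq entries matched 66 of the 86 genes, and 34 of these windows (51.5%) held such a run, against 22.0% of the windows of 27025 genes. On the other strand the same run was found in 9.09% of the genes' windows and 24.7% of all windows. Of the genes' 42 entries within 10 bases of a GENCODE start, 24 (57.1%) held it, and the share of all genes under this limit was not computed. Among the genes without an entry were Rpl17, Rpl21, Rpl23a, Rpl29, Rpl3, Rpl30, Rpl32, Rpl36, Rpl7, Rpl8, Rplp1, Rps14, Rps20, Rps27a and Rps29.

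Ribosomal protein transcripts were about as large a share of UMIs with cGAMP as with PBS. The 86 genes made up 21.19% of all UMIs in the PBS library (21.18 to 21.20) and 21.68% in the cGAMP library (21.67 to 21.69), a log2 ratio of 0.03. Genes of the 60S subunit went from 11.70% to 11.94% of UMIs and genes of the 40S subunit from 9.32% to 9.55%. The mitochondrial share and Gm42418, a nuclear row that overlaps ribosomal RNA, were lower with cGAMP in the same comparison (Gm42418 5124 and 3201 CPM, Neat1 642 and 504 CPM, Malat1 10438 and 10940 CPM). Scaled to the UMIs outside these 3 genes and the mitochondrial genes, the log2 ratio was 0.01, and with the proportions of the cell clusters held equal it was also 0.01. Relative to the median of the 9509 genes that reached 5 CPM in 1 of the libraries, which lay at -0.08, the module was higher by a log2 ratio of 0.11.

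Most single genes of the ribosome stayed near their PBS level. At least 1 library gave 5 CPM or more for 83 of them. With cGAMP 50 of these were higher and 33 lower, with a median log2 ratio of 0.05, and of all 9509 genes at that level 40.4% were higher. A fold of 1.2 was passed by 7 of the 83 genes in the higher direction, against 15.2% of all genes, and by 1 in the lower direction, against 27.3%. In either direction 42.5% of all genes passed it, and 2-fold was passed by 3.52% of all genes and by none of the 83. Of the 77 genes of the 2 subunits, 63 (81.8%) stayed within 10% of the PBS level. The same held for 32.5% of all genes and for 39.1% of the 670 other genes above 200 CPM. The SD of the log2 ratio was 0.13 over the 77 genes and 0.51 over those 670.

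**Figure D1:**
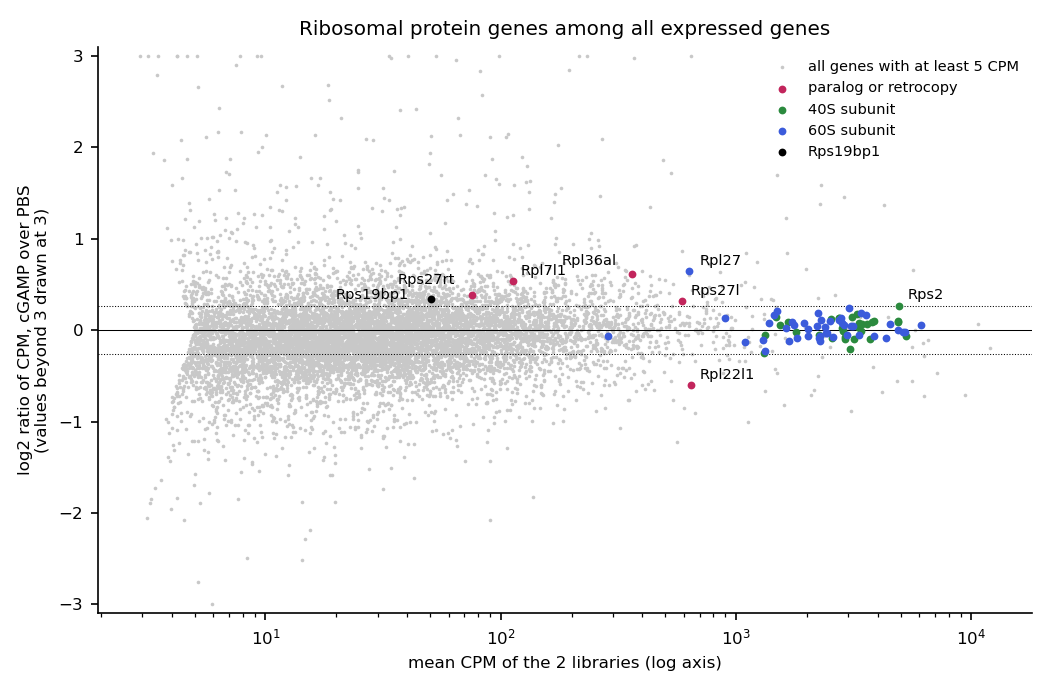
Each point is 1 gene that reached 5 CPM in 1 of the libraries, with its mean CPM of the 2 libraries on a log axis and its log2 ratio of CPM of cGAMP over PBS; dotted lines mark a fold of 1.2. The 77 subunit genes lie at 285 to 6111 CPM and, but for Rpl27 and Rps2, between the lines, and the 8 genes past the lines are named, 5 of them paralogs or a retrocopy.

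The libraries count 3′ ends, so that a UMI stands for 1 transcript whatever its length, and levels of different genes are compared on this scale without dividing by length. Rpl41, which encodes the smallest protein of the ribosome, had the highest mean level, with 5987 CPM in the PBS library and 6235 CPM in the cGAMP library. Among the next in level, Rpl13 had 5288 and 5196 CPM, and Rpl23, whose protein is another partner of MDM2, 5183 and 5108 CPM. These 3 genes differed between the libraries by less than 5 per cent of their level. Rps2, also among the highest in level, had 4465 and 5376 CPM (log2 ratio 0.27) and passed 1.2-fold. At the other end of the subunit genes stood Rpl13a with 291 and 278 CPM, a log2 ratio of -0.06, and Rpl27 with 494 and 774 CPM. Levels across genes are uncertain where sequence is shared with other annotated genes, whether or not these are listed, and the part of this in the levels was not tested. Such sharing of 90-base windows was found for 73 of the 86 genes and covered at least 50% of the windows of 25, among them Rps2 (69.1%) and Rpl27 (57.8%). It was 36.1% for Rpl13a, 43.5% for Rpl22l1, 47.6% for Rpl36al and 2.06% for Rps27l, and no window of Rpl7l1 was shared.

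Rpl27, a 60S gene on chromosome 11 from 101442298 to 101445529 (GRCm38), had the highest ratio of the 83 genes. It had 494 CPM (490 to 499) with PBS and 774 CPM (767 to 780) with cGAMP, which is a log2 ratio of 0.65 (0.63 to 0.66), and was the only 60S gene past 1.2-fold. The difference was of like size in every cell cluster, at log2 ratios of 0.50 to 0.70, and the 8 cluster levels with PBS (401 to 548 CPM) lay below the 8 with cGAMP (568 to 821 CPM). The row Rpl27-ps3 shares 57.8% of the 90-base windows of Rpl27 and held 38.6 and 61.9 CPM, 7.25% and 7.41% of the pair, and the sum of both had the same log2 ratio of 0.65. Ifi35, an interferon-stimulated gene 2878 bases away on the same strand, went from 63.6 to 126 CPM, and its part in the counts of Rpl27 was not tested.

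Rps2 was the only 40S gene past 1.2-fold. Its counting interval of 0.26 to 0.27 includes the threshold, and 2 of 6 other ways of computing the ratio put it below, at 0.25 and 0.24. It was higher with cGAMP in each of the 8 clusters, by 0.14 to 0.68. Among the subunit genes, the next highest ratios after Rpl27 and Rps2 were those of Rpl9 (2764 and 3262 CPM, 0.24) and Rpl29 (1390 and 1603 CPM, 0.21), which stayed under 1.2-fold. At the lower end, Rps15 had 1429 and 1206 CPM, a log2 ratio of -0.24. Rpl5, part of the complex that binds MDM2, had 1435 and 1222 CPM (-0.23), while its partner Rpl11 had 2425 and 2597 CPM (0.10). Rps14 had 3253 and 2818 CPM (-0.21) and Rpl23a 1140.0 and 1041 CPM (-0.13). Rps15 passed 1.2-fold in the lower direction when scaled to UMIs outside ribosomal protein and mitochondrial genes or as a mean over cells.

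The ECs fell into 8 clusters, whose markers are given with their shares. Across these, 29 of the 83 genes were higher with cGAMP in all 8, against 14.1% of all 9509 genes and 30.7% of the 670 other genes above 200 CPM. Lower in all 8 were 11, against 20.6% and 19.4%. These comparisons share the 2 libraries. The 29 included Rpl27, Rpl36al, Rpl7l1, Rps27l, Rps27rt, Rps2 and Rps3, and the 11 included Rpl22l1, Rpl3, Rpl4, Rpl5, Rpl7, Rps14, Rps15 and Rps21. The other 43 had both signs.

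Paralogs had wider ratios than the subunit genes, with a spread near that of genes at large. The 5 that reached 5 CPM, the retrocopy Rps27rt included, all passed 1.2-fold, against 42.5% of all genes. The SD of their log2 ratio was 0.49, and over all genes it was 0.46. Rpl22l1 is the paralog of Rpl22, whose protein is known to hold back the Rpl22l1 transcript. Its level was 775 CPM (769 to 781) with PBS and 510.4 CPM (505 to 516) with cGAMP. The log2 ratio of -0.60 was the lowest of the 83 genes. Rpl22 itself had 1668 and 1775 CPM, a log2 ratio of 0.09, so that Rpl22l1 went from 31.7% to 22.3% of the pair. It was lower in all 8 clusters, by a log2 ratio from -0.83 in the cluster led by Ung to -0.17 in the one led by Igfbp5. That cluster had the lowest level of Rpl22l1 in both libraries, 334 and 296 CPM, whereas the other 7 ranged from 652 to 883 CPM with PBS and from 466 to 615 CPM with cGAMP.

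Rpl36al, on chromosome 12 from 69182731 to 69184083, is a paralog of Rpl36a that encodes nearly the same protein. It had 286 CPM (283 to 290) with PBS and 439 CPM (434 to 444) with cGAMP, a ratio of 0.62 on the log2 scale, while Rpl36a had 1617 and 1647 CPM (0.03). Its share of the pair was 15.04% with PBS and 21.0% with cGAMP, and it was higher in all 8 clusters, by 0.56 to 1.05. The cluster levels of Rpl36al were 185 to 342 CPM with PBS and 323 to 509 CPM with cGAMP, and only the lowest cGAMP level, of the Igfbp5-led cluster, was under the highest PBS level. The windows that Rpl36al shares belong to no other listed gene.

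Rps27l, a paralog of Rps27 that p53 induces, had 527 and 656 CPM (0.32) and made up 22.7% and 27.0% of the pair with Rps27. It was higher in all 8 clusters, by 0.16 to 0.49. Rps27 had 1800.5 and 1779 CPM, a log2 ratio of -0.02. Rps27rt, a retrocopy of Rps27, had 65.7 and 85.96 CPM (0.39), but it shares 89.8% of its windows with Rps27, and its counts are uncertain for that reason. Rps27rt held 3.52% of the pair with PBS and 4.61% with cGAMP, and this share ran only from 3.35% to 3.80% and from 4.40% to 4.76% over the clusters. The sum of both had a log2 ratio of -0.00.

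Rpl7l1, the Rpl7 paralog of the nucleolus, had 91.6 CPM with PBS and 133 CPM with cGAMP (0.54), while Rpl7 had 2060.2 and 1974 CPM (-0.06). The Rpl7l1 ratio was positive in all 8 clusters, from 0.39 to 1.12. Rps19bp1, a regulator of the deacetylase SIRT1, had 44.8 and 56.7 CPM (0.34), and it was higher with cGAMP in 7 clusters. In the cluster led by Igfbp5 it had only 51 and 53 UMIs, and the log2 ratio of -0.45 had a counting interval from -1.03 to 0.14. In the Slc6a6 cluster (37 and 60 UMIs) the interval also included 0. The 3 other paralogs were under 5 CPM in both libraries. Rpl39l, known from the testis, had 77 UMIs (0.836 CPM) and 121 UMIs (1.91 CPM), a log2 ratio of 1.19 (0.77 to 1.62), against 3079 and 3182 CPM for Rpl39. Rpl3l, known from striated muscle, had 0.543 and 0.552 CPM beside 2362 and 2180.2 CPM for Rpl3. Rpl10l, another testis gene, had 0 UMIs with PBS and 3 UMIs with cGAMP, beside 1735 and 1804 CPM for Rpl10. Its counting interval with PBS reaches 0.0401 CPM, and a floor of 3 counts there is 0.0326 CPM.

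**Figure D2:**
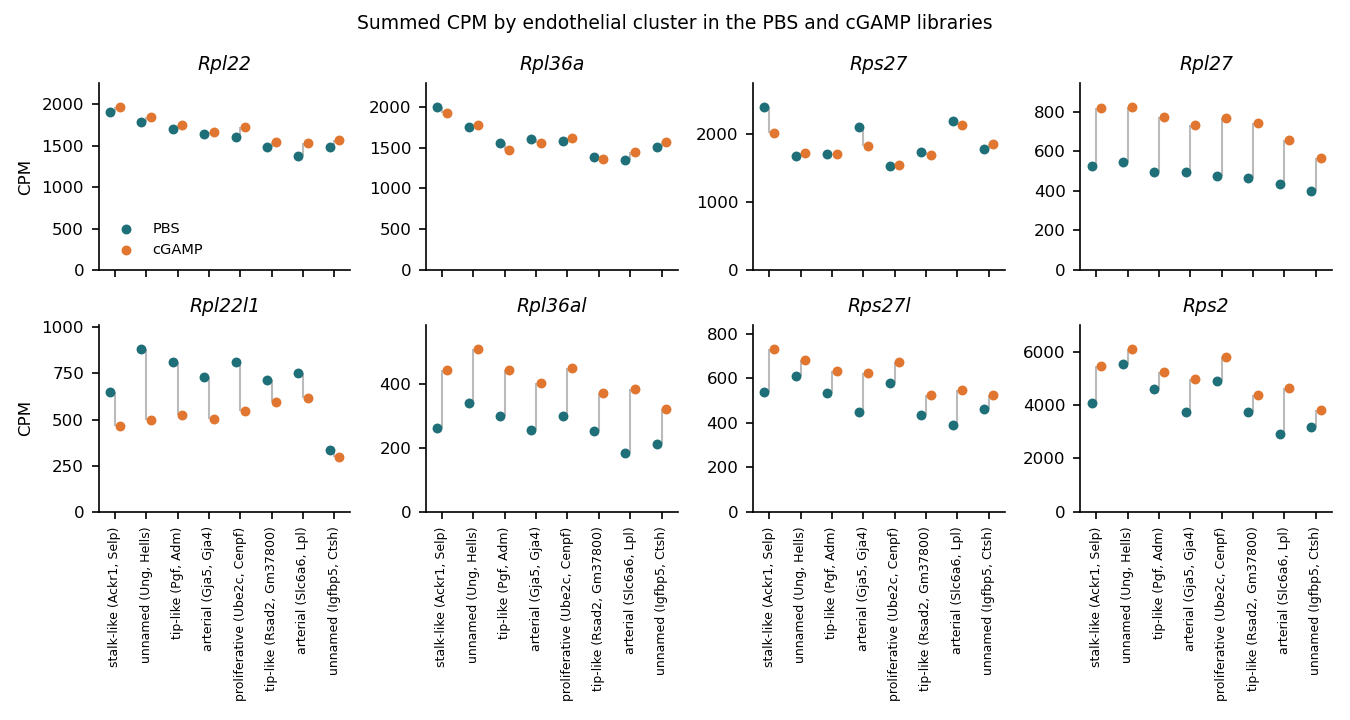
Summed CPM of 8 genes in each of 8 endothelial clusters, named by their class and 2 leading genes, for the PBS and the cGAMP library (1 value per library and cluster, joined by a line). Rpl22l1 was lower and Rpl36al, Rps27l, Rpl27 and Rps2 were higher with cGAMP in all 8 clusters, while Rpl22 and Rpl36a differed little.

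The genes with roles outside the ribosome that were chosen by name all stayed under 1.2-fold, with Rpl5 (-0.23) and Rps3 nearest to it. Rps3, whose protein also acts in DNA repair and in NF-κB complexes, had 3067 and 3457 CPM (0.17). Rpsa, the precursor of the laminin receptor, had 3842 and 3584 CPM (-0.10). Rps6, the substrate of S6 kinase, had 2285 and 2211 CPM (-0.05). Rps19, mutated in Diamond-Blackfan anaemia, had 3500.4 and 3677 CPM (0.07), and Rpl38, which favours translation of Hox mRNAs, 1883 and 1996 CPM (0.08). Rps27a, made as a fusion with ubiquitin, had 3741 and 4005 CPM (0.10). The stalk genes Rplp0, Rplp1 and Rplp2 had log2 ratios of -0.08, 0.00 and 0.04. Rpl26 (-0.08) and Rps4x (-0.10) likewise stayed under the threshold. Fau and Rack1, the ribosomal protein genes named outside the rule, lay in the same band, with log2 ratios of 0.07 and -0.13.

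To see whether the share of ribosomal protein transcripts differed among kinds of ECs, the cells were clustered without the 86 genes and without genes that differed at least 2-fold between the libraries, which left 1791 of 2500 variable genes. The 8 clusters were named from fixed markers as stalk-like, tip-like, proliferative or arterial where at least 3 markers of the class were raised, at least 1 of them was among the 10 leading genes and no other class had more there. By this rule 2 stayed unnamed. The stalk-like cluster was led by Ackr1 and Selp, although Csf3 was also among its leading genes. It had the highest share in both libraries, 23.6% of UMIs with PBS (364 cells) and 23.8% with cGAMP (337 cells). The unnamed cluster led by Ung, Hells and Mcm5, genes of DNA replication, came next with 23.0% (204 cells) and 22.8% (139 cells). The tip-like cluster led by Pgf and Adm had 21.1% and 20.7%, the arterial cluster led by Gja5 and Gja4 20.8% and 20.6%, and the proliferative cluster led by Ube2c and Cenpf 20.8% and 21.6%. The order of these 3 middle clusters differed between the libraries.

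Lower shares were found in 3 clusters. The tip-like cluster led by the interferon genes Rsad2 and Ifit2 beside the tip markers Gm37800 and Chga had 19.2% with PBS and 19.4% with cGAMP. The arterial cluster led by Slc6a6 and Lpl had 18.4% and 20.2%, and the unnamed cluster led by Igfbp5 and Ctsh, 17.5% and 18.1%. In the Igfbp5-led cluster 15 stalk-like markers were raised, against 13 in the stalk-like cluster, but none was among its 10 leading genes. These 3 clusters held 46 to 234 cells with PBS and 53 to 90 with cGAMP. The log2 ratio of cGAMP over PBS lay between -0.03 and 0.05 in 7 clusters and was 0.14 in the Slc6a6 cluster. The ratio of 60S to 40S UMIs was nearly constant, from 1.21 to 1.28 over the 16 values.

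The stalk-like cells exceeded the other ECs by 2.67 percentage points with PBS (23.6% and 20.9%) and by 2.72 points with cGAMP (23.8% and 21.0%). With the Igfbp5-led cluster counted as stalk-like the excess was 2.01 and 2.12 points, and with that cluster left out 2.62 and 2.63 points. The difference depended on how the libraries were joined. Clustered without integration, a stalk-like cluster led by Igfbp5 and Lbp exceeded the others by 1.64 points with PBS and was below them by -0.42 points with cGAMP. In that clustering, 341 cGAMP cells and only 14 PBS cells formed an unnamed cluster led by Iigp1 and Tgfbi, whose cGAMP cells had 23.7%. The stalk-like cells of the PBS library had fewer UMIs than the library's ECs (medians 21507 and 29780), whereas those of the cGAMP library were nearly as deep as theirs (38675 and 41178).

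**Figure D3:**
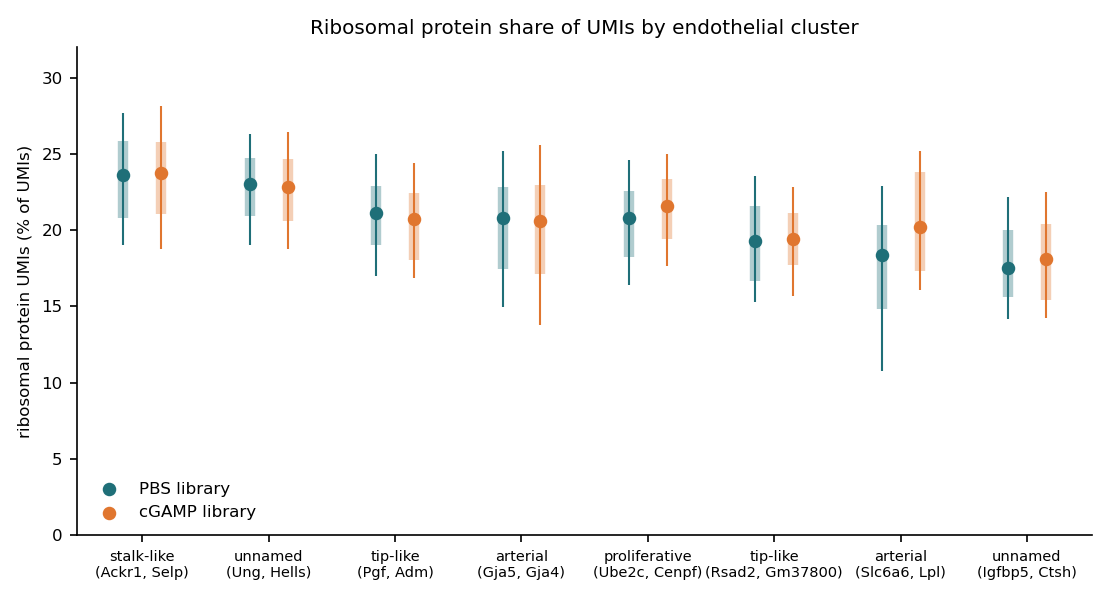
Ribosomal protein UMIs as a percentage of all UMIs in 8 endothelial clusters, for the PBS and the cGAMP library, with points for the summed cells, thick bars from the lower to the upper quartile of single cells and thin lines from the 10th to the 90th percentile. The clusters led by Ackr1 and by Ung are highest in both libraries, and the spread among cells of a cluster is wider than the differences between the libraries.

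Single cells varied far more than counting alone would give. The share had a median of 20.9% with PBS and 21.3% with cGAMP, and the 5th and 95th percentiles were 14.6% and 27.0% and 14.8% and 27.8%. Its SD was 3.97 and 4.15 percentage points, where sampling of UMIs accounts for 0.287 and 0.242. The 2 subunits moved together across cells, with a Pearson r between the 60S share and the 40S share of 0.97 over 2517 cells and 0.98 over 1340 cells. Both shares have the same total as denominator. The module share also went with the summed share of 20 other TOP mRNAs (r of 0.70 and 0.56) and against that of Malat1, a nuclear RNA (-0.33 and -0.31), and of Gm42418 (-0.28 and -0.29). Weaker values were found with UMIs per cell (0.13 and 0.12), the mitochondrial share (-0.13 and -0.10), the interferon list (-0.12 and -0.05), the hypoxia list (-0.07 and -0.19) and the biogenesis list (0.27 and 0.29). The comparison of the libraries differed with depth. In cells under 10000 UMIs the share was 19.7% with PBS (182 cells) and 22.6% with cGAMP (56 cells), and at 10000 to 20000 UMIs it was 20.2% in both. At 20000 to 30000 UMIs it was 21.4% and 20.2%, at 30000 to 40000 UMIs 21.2% and 21.1%, at 40000 to 60000 UMIs 20.7% and 21.6%, and from 60000 UMIs 21.7% and 22.3%. The sign of the difference thus followed no single order with depth.

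The evenness of the module's make-up was measured as the SD over the 8 clusters of the log2 share of the module taken by each gene, averaged over the libraries. Rpl19, Rpl7a and Rpl6 varied least, with SDs of 0.03 to 0.04, and Rpl27a was close to them at 0.04. Rpl22l1 varied most (0.34), followed by Rps19bp1 (0.29), Rps27rt (0.26), Rps27 (0.22) and Rpl7l1 (0.19). The 2 smallest clusters had 37 to 60 UMIs of Rps19bp1 per library. Without these clusters, as an alternative chosen after seeing the data, Rps19bp1 varied most (0.26), followed by Rpl22l1 (0.20), Rps27rt (0.20) and Rps27 (0.17). Rpl6 (0.018), Rps12 (0.025) and Rpl30 (0.025) then varied least, while Rpl19 and Rpl7a had 0.033 and 0.034.

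Rps27 and its retrocopy had the same pattern, with their highest share of the module in the arterial Slc6a6 cluster and their lowest in the proliferative and Ung-led clusters. Rps27 had 2188 CPM in the Slc6a6 cluster, 2392 CPM in the stalk-like and 1525 CPM in the proliferative cluster with PBS, and 2126, 2012 and 1546 CPM with cGAMP. Rps2 and Rpsa, which followed the 5 in variation, had the reverse order. Rps2 was at 5544 CPM in the Ung-led and 4910 CPM in the proliferative cluster with PBS, against 2898 CPM in the Slc6a6 cluster. With cGAMP these levels were 6103, 5806 and 4647 CPM. Rpsa was at 4670 CPM in the Ung-led cluster and 2434 CPM in the Slc6a6 cluster with PBS, and at 4037 and 2935 CPM with cGAMP. With cGAMP, the lowest share of the module for both was in the Igfbp5-led cluster. Rps3 stood out in the Igfbp5-led cluster, where its log2 share against the library was 0.27 with PBS and 0.48 with cGAMP.

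**Figure D4:**
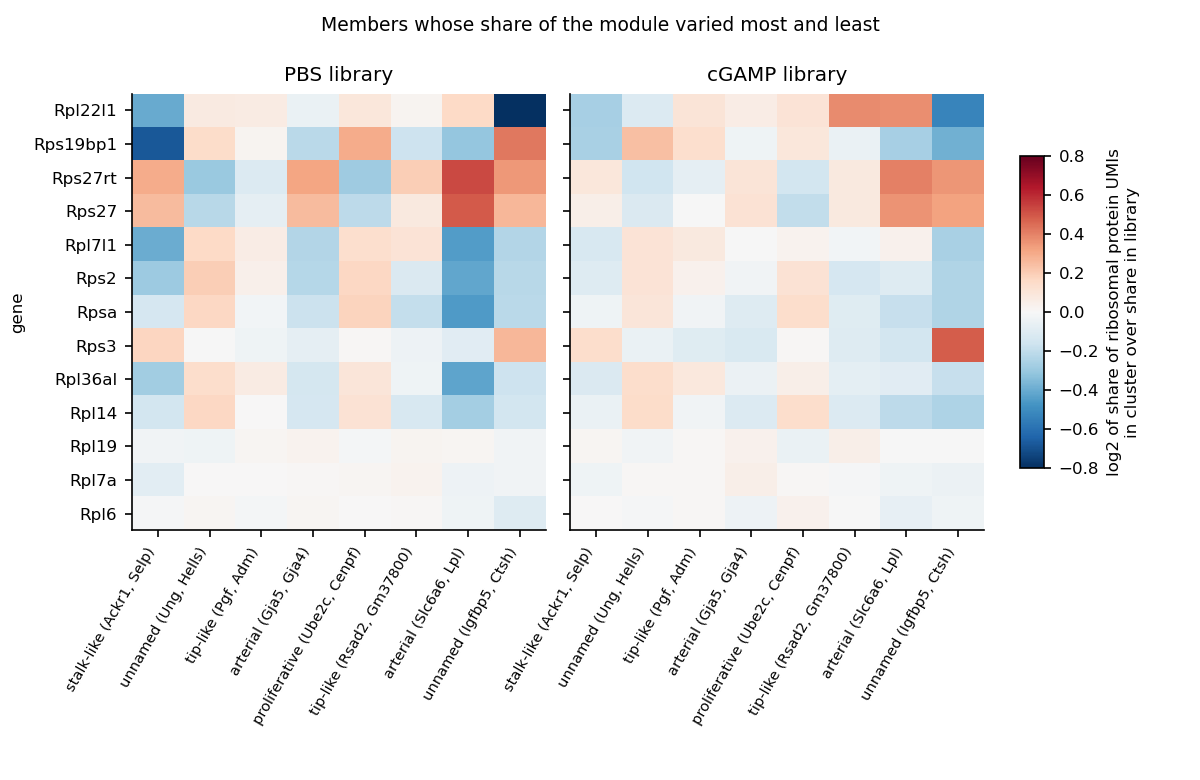
Colours give the log2 of a gene's share of ribosomal protein UMIs in a cluster over its share in the whole library, for the 10 genes whose share varied most over the clusters and the 3 whose share varied least, in the PBS and the cGAMP library. Rps27 and Rps27rt, which share most windows of Rps27rt and are not independent, are high in the Slc6a6-led cluster where Rps2 and Rpsa are low. Rpl22l1 is lowest in the Igfbp5-led cluster.

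Genes of ribosome biogenesis and of the mitochondrial ribosome had higher median ratios than the ribosomal protein genes (0.05), whereas other TOP mRNAs and their regulators had lower ones, and no difference between lists was tested. Of 29 genes of ribosome biogenesis, the nucleolar making of rRNA and its assembly with protein, 26 were higher with cGAMP, against 40.4% of all genes. In the higher direction 22 passed 1.2-fold and in the lower 1, against 15.2% and 27.3% of all genes, with a median log2 ratio of 0.45. Myc, which drives transcription of this programme, had 25.4 and 42.2 CPM (0.73). Nop56 of the C/D snoRNP had 94.1 and 151 CPM (0.69), Ebna1bp2 107 and 174 CPM (0.70), nucleolin (Ncl) 597 and 718 CPM (0.27) and nucleophosmin (Npm1) 1246 and 1576 CPM (0.34). Ubtf, a factor of RNA polymerase I, was the 1 lower past 1.2-fold, with 68.5 and 53.3 CPM (-0.36). Of the 78 mitochondrial ribosomal protein genes, 77 reached 5 CPM and 72 were higher (40.4% of all genes), with a median of 0.22. Past 1.2-fold were 34 in the higher and 1 in the lower direction (15.2% and 27.3% of all genes). Mrpl47 had the highest ratio (0.65) and Mrpl34 the lowest (-0.31).

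The other 20 TOP mRNAs listed of 24 lay near the median of all genes (-0.08). They had a median of -0.05, with 7 higher and 13 lower, of which 3 and 2 passed 1.2-fold (15.2% and 27.3% of all genes). Npm1 (0.34), 1 of the 3 past it in the higher direction, is also counted among the biogenesis genes. The elongation factor genes Eef1a1 (6521 and 5938 CPM, -0.14) and Eef2 (1145 and 908 CPM, -0.33) had negative ratios, Tpt1 had 5755 and 5748 CPM, and Snhg6, a host gene of snoRNAs, had 139.6 and 233 CPM (0.74). Of 19 regulators of TOP mRNA translation and S6 kinases, 2 passed in the higher and 5 in the lower direction, shares near those of all genes (15.2% and 27.3%), with a median of -0.12. Mtor (23.2 and 23.2 CPM) and Larp1 (59.9 and 60.9 CPM) were level, and Eif4ebp1, a repressor of cap-dependent translation, had 250.5 and 199.5 CPM (-0.33). In the p53 arm that follows failed ribosome assembly, Cdkn1a had 241 and 389 CPM (0.69), while Mdm2 (0.17), Trp53 (0.18) and Mdm4 (-0.18) stayed under 1.2-fold. Thus 1 of 4 genes passed, against 42.5% of all genes in either direction, and the median was 0.17. For comparison, all 23 genes of the interferon list passed in the higher direction (median 1.43), against 15.2% of all genes. In the lower direction 8 of the 10 hypoxia genes tested passed (median -0.53), against 27.3% of all genes.

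**Figure D5:**
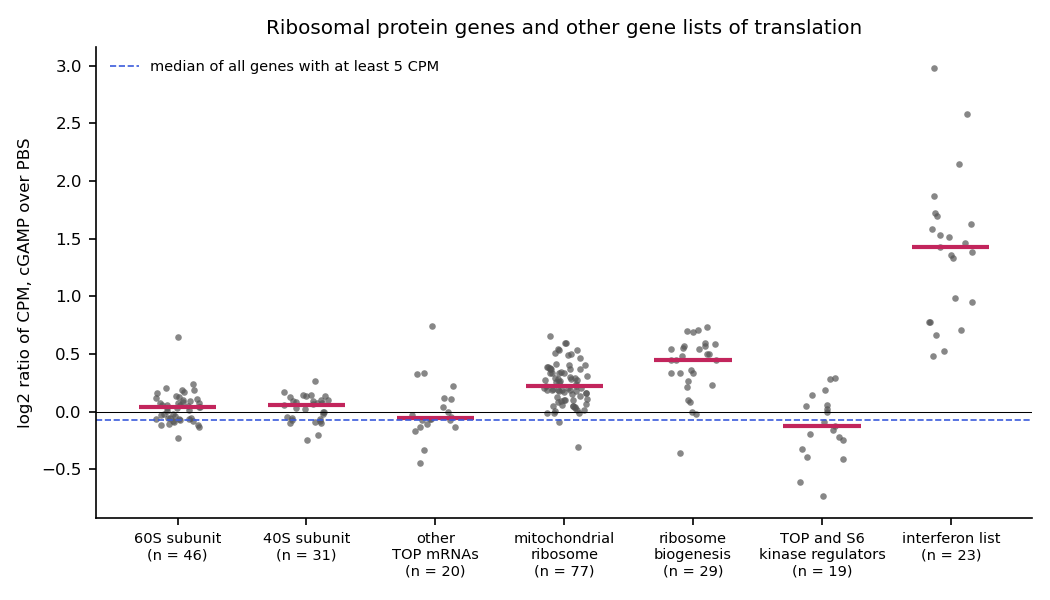
Each point is the log2 ratio of CPM of cGAMP over PBS of 1 gene that reached 5 CPM in 1 of the libraries, grouped by gene list; red bars are medians and the dashed line is the median of all genes. The 60S and 40S genes lie close to 0, biogenesis and mitochondrial ribosome genes have medians of 0.45 and 0.22, and the interferon list has a median of 1.43.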

How the data were processed

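The authors aligned reads of a 3′ droplet kit (version 3 in the methods, 2 in the labels) to mm10. The submitters' processing notes name Cell Ranger 3.0.0 and Seurat 3.1.1. They removed cells with under 500 genes or over 10% mitochondrial UMIs, genes in fewer than 3 cells, and non-endothelial clusters. The deposited values are on the natural log scale, of 1 plus UMIs per 10000. Counts were recovered from the smallest step of each cell, with 100% of values within 0.01 of a whole number, and summed per library. The libraries had 1 barcode in common. No doublets were removed; an alternative left out the 5% of cells with the most UMIs.

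Intervals of levels and ratios are exact Poisson intervals and conditional binomial intervals. Counts of genes cover those that reached 5 CPM in at least 1 library, and a gene was called past a fold of 1.2. Of the 86 genes, 19 share 90-base windows of transcript ends with another listed gene, so that counting may have divided their reads, and 19 overlap a listed gene in the GENCODE vM21 annotation. Clustering used R 4.3.3 and Seurat 5.3.0 (2500 variable genes, integration anchors, 30 principal components, resolution 0.5). A marker was raised at 2-fold with 5 CPM added, and a name needed 3 raised markers, at least 1 marker of the class among the 10 leading genes and no other class with more there. Rebuilt clusters need not be those of the study.

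The genes named were the 5 highest in level, the 5 highest and 5 lowest in ratio and the 5 most and least variable over clusters (at least 20 CPM), every paralog with its parent, every gene under 5 CPM, Rps19bp1, and 12 genes with roles outside the ribosome. Some of these are not reported here. Others (Rpl9, Rpl29, Rpl4, Rps21, genes named from the lists, the 7 start windows, the depth ranges, the copies) were chosen after their values were seen. The members and lists were chosen with earlier results of these data known, as were the thresholds for names. Alternatives were other scalings, filters, cell selections and clusterings, of which 6 were added after seeing the data. The steps were tested on simulated counts of 9309 genes. Tools were numpy 2.4.6, scipy 1.17.1, pandas 2.3.3 and matplotlib 3.10.9.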

Additional observations from a re-analysis of the deposited data

Results flagged for a closer look

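The log2 ratio of the ribosomal protein share of UMIs, cGAMP over PBS, had different signs in different clusters. It was -0.0287 in the Pgf-led tip-like cluster, -0.0157 in the Gja5-led arterial cluster and -0.0126 in the Ung-led cluster. It was 0.0104 in the stalk-like cluster, 0.0540 in the proliferative cluster, 0.0142 in the Rsad2-led tip-like cluster, 0.136 in the Slc6a6-led arterial cluster and 0.0526 in the Igfbp5-led cluster. Each is 1 library against 1, all 8 share the 2 libraries, and the differences between clusters were not tested.

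The 8 rows with -ps in the symbol, which the rule leaves out, summed to 169 CPM (166 to 171) with PBS and 201 CPM (197 to 204) with cGAMP, a log2 ratio of 0.25. They were singled out as a signal outside the 86 genes that was above its level in the PBS library. Most of the difference was in Rpl27-ps3, with 38.6 and 61.9 CPM.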

How the results depend on the processing

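No paired analysis was possible because each condition has 1 library. The log2 ratio of the summed ribosomal protein UMIs (0.033) was above 0 under all 10 alternatives, at 0.031 as a mean over cells, 0.012 scaled outside ribosomal protein and mitochondrial genes, 0.108 with median-of-ratios scaling, 0.042 in cells with at most 5% mitochondrial UMIs, 0.040 without the 5% of cells with the most UMIs, 0.0070 with state proportions held equal, 0.015 in cells matched on UMIs and, as alternatives chosen after seeing the data, 0.0063 scaled outside mitochondrial genes, Malat1, Neat1 and Gm42418 and 0.0325 for the 77 subunit genes. All of these but the last lay outside the counting interval of the main value (0.0318 to 0.0338), 5 below and 3 above it, and the cause was not tested. With the copies added it was 0.0328. The count past 1.2-fold in the higher direction ran from 6 to 9, while 14.1% to 20.6% of all genes passed under the same alternatives. The count of 9 came with median-of-ratios scaling, where 20.6% of all genes passed. The count in the lower direction was 2, with Rps15 added, when scaled outside ribosomal protein and mitochondrial genes and as a mean of per-cell CPM. In these 2 settings 29.6% and 27.0% of all genes passed. The stalk-like excess in percentage points was 2.94 with PBS and 3.08 with cGAMP as a mean over cells, 2.60 and 2.45 with all variable genes, 2.09 and 2.06 at resolution 0.3, 2.38 with PBS at most 5% mitochondrial UMIs (cluster assignment kept), and 1.64 and -0.42 without integration, where the cause was not tested. It was 2.01 and 2.12 with the unnamed Igfbp5-led cluster counted as stalk-like and 2.62 and 2.63 with it left out, both chosen after seeing the data. Of the 8 genes past 1.2-fold, 7 remained past it under all 6 alternatives and Rps2 under 4. Depth limits the 3 paralogs under 5 CPM and Rps19bp1 in the 2 smallest clusters, shared sequence limits the levels, and no result has a replicate.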
